A study of Coturnix japonica with 20 samples.

Results

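Liver RNA was sequenced from female Japanese quail embryos (Coturnix japonica) whose eggs had received ethinylestradiol (EE2), the synthetic estrogen of contraceptive pills, and was compared with liver RNA of female embryos from solvent-injected eggs. The series holds 20 libraries, of which 11 are described here: 6 from EE2 females (replicates 1, 2, 7, 8, 9 and 10) and 5 from solvent females (replicates 3, 5, 6, 9 and 10), chosen by their labelled sex and treatment. The EE2 dose was 3.33 µg per g of egg and the solvent was DMSO. Each egg was injected once, with 10 µl into its air cell, then incubated at 37 °C at a humidity of 60%, and the left lobe of the liver was taken on embryonic day 9. Another 9 libraries, from 4 EE2 males and 5 solvent males, were used for the shared estimate of spread and for the test of whether the female response differed from the male one. The labels do not say whether embryos shared parents, so the p-values cover only the spread between embryos as sampled.

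In egg-laying vertebrates the liver is a main target of estrogen. In a laying hen, estrogen binds its receptor in hepatocytes and switches on the genes of yolk precursors, the vitellogenins and the apolipoproteins of very-low-density lipoprotein, which are made on the rough endoplasmic reticulum (ER), folded, glycosylated, loaded with lipid, secreted into blood and taken up by the growing oocyte. The liver also makes some of the glycoproteins of the inner coat of the egg. In birds these genes are normally low or silent before sexual maturity, and the liver of an embryo can respond to injected estrogen.

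The 11 libraries held 26796872 to 30673847 estimated counts each, apart from the library of solvent female 9, which held 15298506. At the median gene of the Z chromosome, all 11 lay at -0.43 to -0.354 log2 units relative to the mean of the males, and the 9 male libraries at -0.0331 to 0.0223, so no library went against its labelled sex. The first principal component of the 11 libraries carried 46.3% of the variance and put all 6 EE2 females (22.5 to 30.3) apart from all 5 solvent females (-39.5 to -27.9). The library of solvent female 10 stood at the far end of it and also had the highest share of mitochondrially encoded counts (9.03%, against 5.06 to 6.84% in EE2 females and 5.9 to 7.35% in the other solvent females). Within groups the libraries correlated at 0.976 to 0.985 among EE2 females and at 0.978 to 0.987 among solvent females (Pearson, log2 CPM across genes), and the median coefficient of variation of the 8166 genes at 10 CPM or more was 11.6% in EE2 females and 11.4% in solvent females. CPM, the usual depth-scaled counts, use the scaling described with the methods; they are not divided by gene length, so a rank of genes by CPM is a rank of counts.

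EE2 changed the liver transcriptome of female embryos broadly. In these bulk samples, fewer cells of a type and less RNA per cell cannot be told apart. Of 13501 genes tested with edgeR's quasi-likelihood test (Benjamini-Hochberg adjusted p under 0.05, called here "called", with no minimum fold), 2737 (20.3%) were called, 1375 higher (10.2%) and 1362 lower (10.1%) in EE2 females. The counts in the 2 directions were alike, but the sizes were not. At least 2-fold changes numbered 403 higher and 282 lower, at least 8-fold changes 80 higher and 13 lower, and at least 32-fold changes 28 higher and 2 lower. The median called change was 0.58 on the log2 scale in either direction. For 755 of the genes called higher, every EE2 female lay above every solvent female, and for 765 of those called lower every EE2 female lay below; over all genes tested, such complete separation was seen upward in 5.99% and downward in 6.08%. There were 23 genes with at most 15 counts over all 5 solvent females and at least 1 CPM on average in EE2 females, and 3 genes with the reverse pattern.

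The scaling of the libraries moves the balance between directions, and abundant messages took a different share of the libraries in the 2 groups. Genes called higher made up 19.5 ± 1.88% of all counts in EE2 females, against 5.98 ± 0.572% in solvent females (SD, n = 6 and 5), while genes called lower made up 33.2 ± 2.7% in EE2 females and 53.8 ± 2.73% in solvent females. These sets were chosen by the same comparison of the same libraries, so the direction of these shifts follows from the choice and only their size is described. Albumin and transferrin (ALB and TF, the main plasma carriers of small molecules and of iron) together held 4.88 to 10.8% of each EE2 library and 15.3 to 20.1% of each solvent library. LOC107317565, LOC107319873 and LOC107317352, which are named by locus only, held 4.23 to 7.45% of each EE2 library and at most 0.0058% of any solvent library. APOB alone, the structural protein of very-low-density lipoprotein, held 3.76 to 4.35% of each EE2 library and 0.97 to 1.6% of each solvent library. The TMM scaling factors followed the groups (1.091 to 1.173 in EE2 females, 0.804 to 0.9943 in solvent females), so that composition and treatment cannot be told apart in the scaling itself. With library totals as the only scaling, the median of all genes moved to 0.30 on the log2 scale from 0.01, and 5214 genes were called higher and 564 lower. All 1375 genes called higher and 563 of those called lower were called the same way on library totals, and no gene was called the opposite way. Of 35 pathway and symbol-pattern lists described below, 30 had more members called higher on library totals and 25 fewer called lower, and the counts on library totals are given where they put another direction ahead. The counts of every list are to be read beside the shares of all genes tested, 10.2% higher and 10.1% lower, and some lie close to them. The lists and their members were chosen with earlier results of these data known, so setting them beside these shares is no test of a list. The changes below are relative to the bulk of the transcriptome, and library totals move the median gene by about 0.3 log2 units upward, so that a log2 change of about -0.3 lies near zero on that scale and one near zero lies above it.

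**Figure D1:**
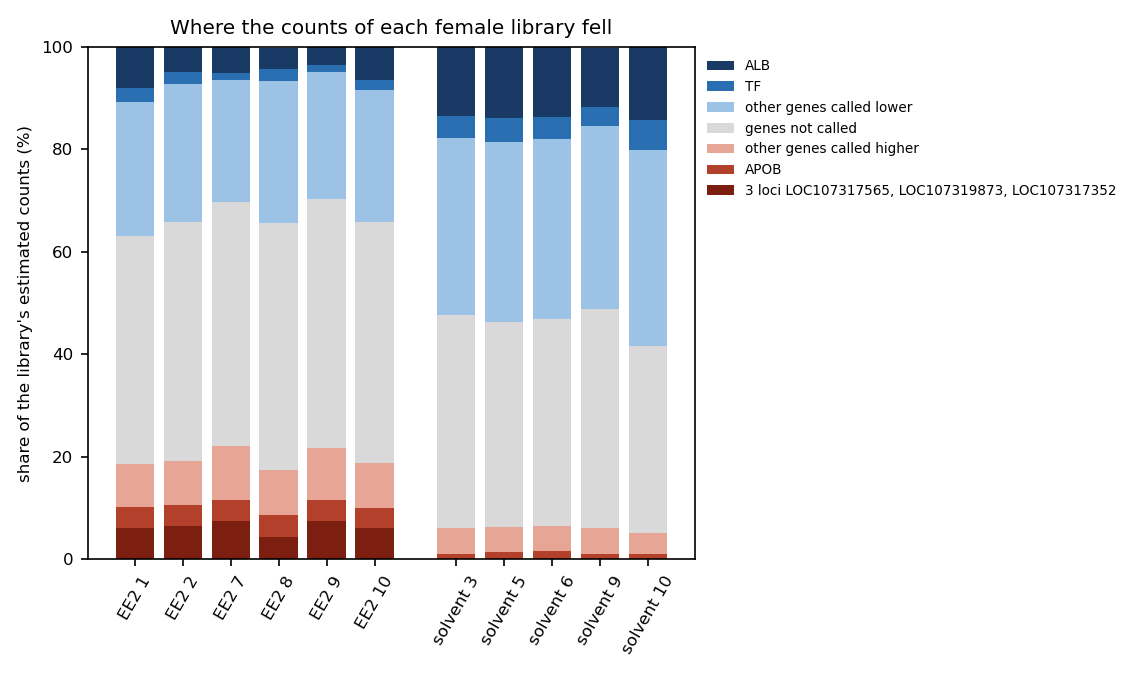
Share of each female library's estimated counts (vertical axis, percent) taken by the loci and genes named in the legend, by the other genes called higher or lower, and by genes not called, for the 6 EE2 females (left) and the 5 solvent females (right), each labelled by replicate number. The genes called higher, a set chosen from these same libraries, take 17.3 to 22.1% of the EE2 libraries, against 5.02 to 6.53% of the solvent libraries. The share of ALB is smaller in all 6 EE2 females.

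The share of genes called lower depended on how abundant a gene was. Of genes under 1 CPM (mean of the 11 female libraries), 2.44% were called lower and 6.13% higher. Between 10 and 100 CPM, 11.1% were called lower and 10.9% higher. Between 100 and 1000 CPM, 28.8% were called lower and 11.1% higher, and of the 98 genes over 1000 CPM, 49 (50%) were called lower and 12 (12.2%) higher. Counts per gene, and with them the power of the test, grow with level too. On library totals the share called lower was 1.98% under 1 CPM, 3.51% between 10 and 100 CPM and 36.7% over 1000 CPM, and the share called higher at the same levels was 13.4%, 47.9% and 25.5%.

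**Figure D2:**
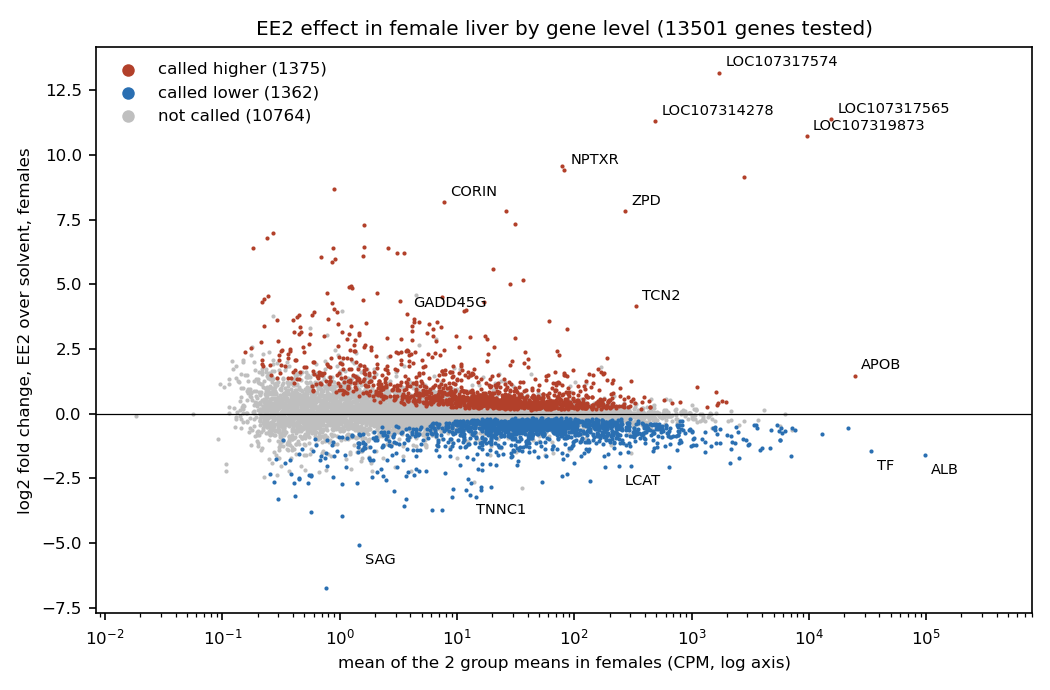
Log2 fold change of EE2 over solvent females (vertical axis) against the mean of the group means in CPM (horizontal log axis) for the 13501 genes tested, with 1375 called higher in red, 1362 called lower in blue and the other 10764 in grey. The largest changes are upward and include abundant loci such as LOC107317565, whereas most called genes at the abundant end, ALB and TF among them, lie below 0.

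The strongest response was the rise of a handful of loci from low levels to the level of the most abundant liver messages. LOC107317565 reached 22250, 32020 and 36550 CPM in EE2 females (lowest, median and highest), against 6.07, 19.8, 20.4, 8.35 and 2.51 CPM in solvent females. LOC107319873 reached 12650, 20040 and 22130 CPM in EE2 females, against 8.22, 10, 16.8, 19 and 2.34 CPM in solvent females. The groups did not overlap at either locus, and these became the third and the fourth most abundant genes of the EE2 libraries by CPM, after ALB and APOB. LOC107317352 read 2802, 5820 and 7125 CPM in EE2 females and 6.71, 12.2, 24.6, 5.52 and 0.383 CPM in solvent females. Their log2 fold changes were 11.40 ± 0.623, 10.74 ± 0.62 and 9.13 ± 0.765 (SE), with adjusted p of 2.33e-09, 2.47e-09 and 2.88e-07. The last fold rests partly on solvent female 6 and was 9.81 without it. EE2 female 8 had the lowest value of the EE2 group at all 3 loci.

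More loci without gene names rose from near nothing. LOC107317574 varied most, at 882, 2180 and 10050 CPM in EE2 females, while solvent females read 0.302, 0.319, 0.52, 0.329 and 0.34 CPM. Its highest value, in EE2 female 7, was over 2 times the next, and the log2 fold change of 13.18 ± 1.34 was 12.48 without that embryo. LOC107314278 was much more even, at 599.5, 1032 and 1171 CPM in EE2 females, against 0.0754, 1.21, 0.347, 0.132 and 0 CPM in solvent females (log2 change 11.30, and 12.65 without solvent female 5). LOC107310248 read 27.1, 102 and 463 CPM in EE2 females and 0.264, 0.177, 0.382, 0.132 and 0 CPM in solvent females, with the highest value again in EE2 female 7 (log2 change 9.56, and 8.85 without it). For each of these, all 6 EE2 females lay above all 5 solvent females. The files and the gene table give no product name for these loci, and none is inferred here.

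Genes of the egg's inner coat and of yolk lipoprotein moved in different ways. The list of yolk and egg-coat proteins held 16 symbols, of which 8 were matched and tested: 4 were called higher, 1 lower (2 without solvent female 3 or 6 or EE2 female 7), and the median log2 change was 0.34, against 0.014 for all genes. ZPD, a zona pellucida protein of the egg coat (the gene table gives this synonym for LOC107319112), rose to 235, 568 and 734 CPM in EE2 females, against 2.98, 4.08, 3.19, 0.592 and 0.383 CPM in solvent females, a log2 change of 7.84 ± 0.613 (adjusted p = 1.22e-07). ZP1, an egg-coat glycoprotein made by the liver in birds, was already present in solvent females at 117, 102, 86.9, 97 and 46.4 CPM and reached 189, 249 and 386 CPM in EE2 females, a 2.98-fold rise (adjusted p = 0.00926). APOB stood at 32660, 36340 and 38840 CPM in EE2 females and at 10890, 14950, 17010, 9760 and 12530 CPM in solvent females, 2.78-fold higher with EE2 (adjusted p = 1.51e-06). MTTP, which loads lipid onto APOB in the ER, went the other way, at 108 to 156 CPM in EE2 females against 209.7 to 242 CPM in solvent females (log2 change -0.84 ± 0.141, adjusted p = 0.000297). RBP4, the retinol carrier of plasma and yolk, read 1899 ± 382 CPM in EE2 females and 1440 ± 124 CPM in solvent females (adjusted p = 0.04); the ranges overlapped, and the call was lost without EE2 female 2, 7, 8 or 10 or without solvent female 3, 5, 9 or 10, and with only the female libraries fitted. The vitellogenin symbols VTG1, VTG2 and VTG3 and APOV1 were not matched to a row and are not analysed here.

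**Figure D3:**
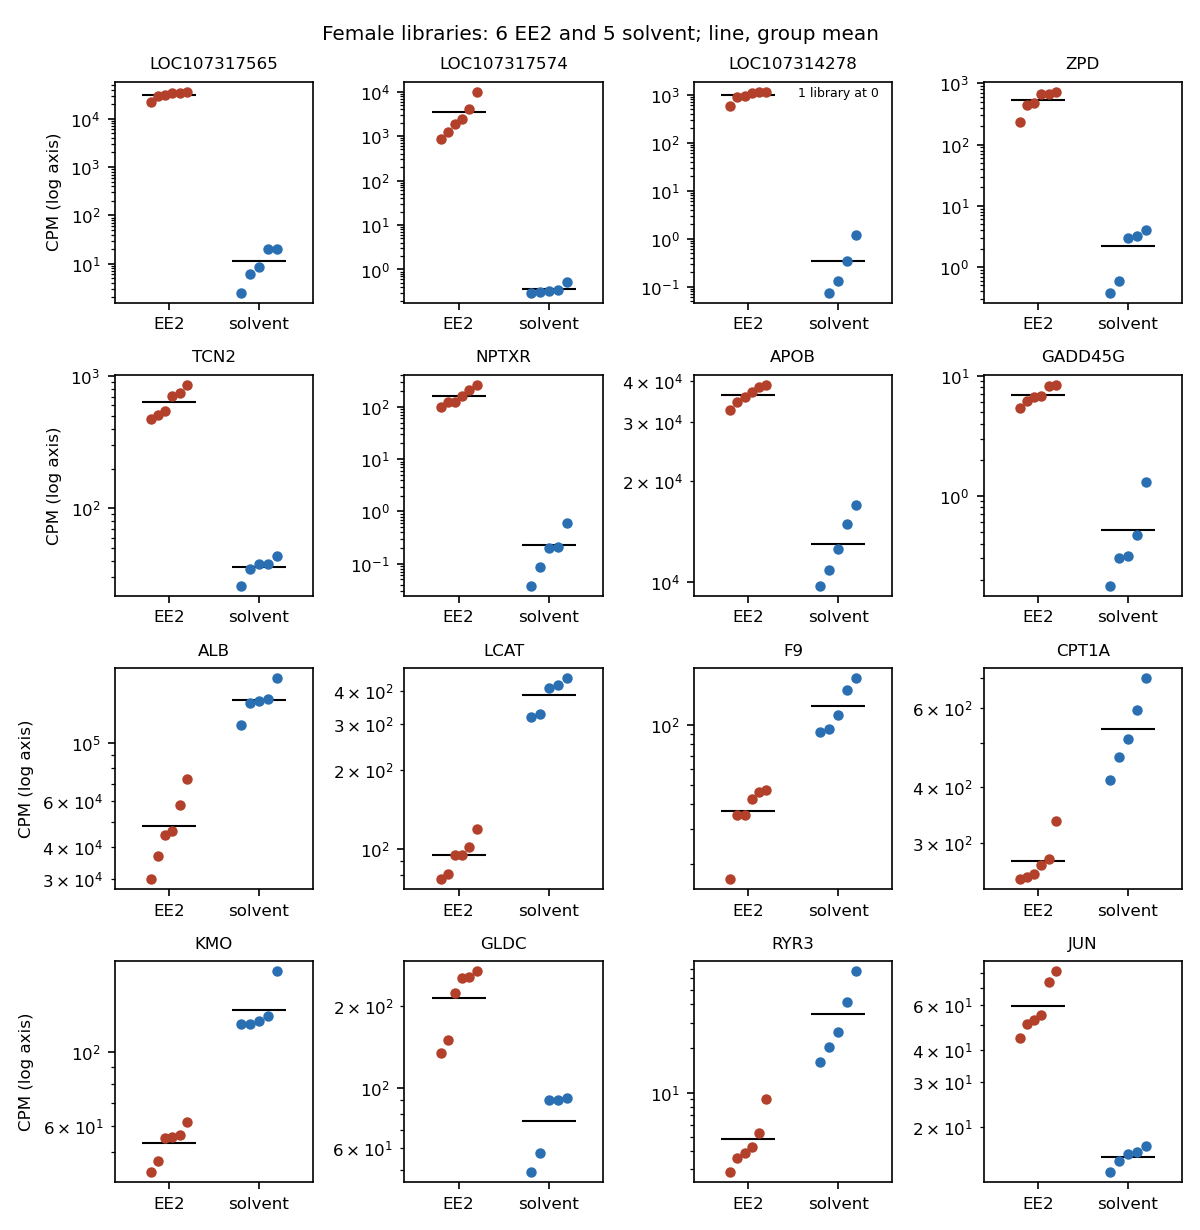
CPM (log axis) of 16 genes in each female library, with the 6 EE2 females (red) left of the 5 solvent females (blue), points sorted by value within a group and a line at the group mean. The groups do not overlap in any panel; LOC107317574 spans 881.8 to 10050 CPM within the EE2 group, while TCN2 and APOB vary by less than 2 times within it.

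TCN2, transcobalamin, the plasma carrier that delivers vitamin B12 to cells, was the most abundant gene with a name among those raised at least 8-fold. It read 470.1, 624 and 861 CPM in EE2 females and 38, 34.6, 43.2, 37.6 and 25.9 CPM in solvent females. Every EE2 female was at least 10 times every solvent female, and the log2 change was 4.15 ± 0.284 (adjusted p = 1.85e-08). CUBN, the cubilin receptor that takes up B12 with its binding protein in kidney and gut, read 2.14, 7.53 and 40.1 CPM in EE2 females and 0.151, 0.78, 2.74, 0.92 and 1.83 CPM in solvent females (log2 change 3.35 ± 0.854, adjusted p = 0.00908). Here the groups overlapped, the change was 2.60 without EE2 female 8, and limma voom did not call it.

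Among other named genes, the largest rises were of genes with few or no reads in solvent liver. NPTXR, a neuronal pentraxin receptor of synapses, read 101, 142 and 265 CPM in EE2 females and 0.0377, 0.603, 0.208, 0.197 and 0.085 CPM in solvent females; its log2 change of 9.41 ± 0.623 was 10.27 without solvent female 5. CORIN, the heart protease that activates natriuretic peptide, was even across EE2 females at 13.2, 15.5 and 18.4 CPM, against 0.0754, 0.0709, 0.0347, 0 and 0.0425 CPM in solvent females (log2 change 8.18 ± 0.566, adjusted p = 2.09e-08). ELOVL2, which lengthens polyunsaturated fatty acids, read 4.97, 56.3 and 114 CPM in EE2 females and 0.189, 0.106, 0, 2.17 and 0.085 CPM in solvent females, so that the lowest EE2 embryo, number 8, stood close to the highest solvent embryo, number 9; the log2 change of 7.33 ± 0.96 was 9.30 without solvent female 9. FAXDC2, a member of the fatty acid hydroxylase family, ranged from 18.1 to 91.8 CPM in EE2 females with its highest value in EE2 female 8, against 0.395 to 1.39 CPM in solvent females. SPATA1, a spermatogenesis-associated gene, ranged from 34.8 to 127 CPM in EE2 females, against 1.15 to 3.05 CPM in solvent females.

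The remaining genes of this kind were rare messages even with EE2. CKMT2, the muscle form of mitochondrial creatine kinase, read 0.12, 3.08 and 6.61 CPM in EE2 females and 0 to 0.0709 CPM in solvent females. GAREM2, an adaptor of growth factor receptor signalling, ranged from 1.7 to 7.76 CPM in EE2 females, against 0 to 0.298 CPM in solvent females. FGF23, a phosphate-regulating hormone, ranged from 1.4 to 4.88 CPM in EE2 females, against 0.0658 to 0.34 CPM in solvent females (log2 change 4.4, and 5.0 without solvent female 10). HHIPL2 ranged from 3.04 to 19.1 CPM in EE2 females, against 0.113 to 0.555 CPM in solvent females; its log2 change of 4.36 was 3.59 without EE2 female 2. CLVS2, GRXCR2 and AANAT, the last being the enzyme that makes the melatonin precursor, had 2, 3 and 3 counts over all solvent females. Their ratios of EE2 to solvent counts, with 95% intervals that cover counting error only, were 107 (29.4 to 888), 73.3 (24.9 to 357) and 69.5 (23.6 to 339). All 3 counts of AANAT were in solvent female 10, and the counts of GRXCR2 were in solvent females 5 and 10. ELOVL2, CKMT2 and HHIPL2 were called by edgeR but not by limma voom.

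The genes of the estrogen receptors did not pass the test. ESR1, the estrogen receptor that mediates the hepatic response in birds, read 7.4, 8.56 and 9.91 CPM in EE2 females and 10.2, 10, 13.2, 13.3 and 15.7 CPM in solvent females. All 6 EE2 females were below all 5 solvent females, yet the log2 change of -0.54 ± 0.219 did not pass (adjusted p = 0.0922), and it passed when only the female libraries were fitted. ESR2 stood at 0.97 ± 0.34 CPM in EE2 females and 0.739 ± 0.415 CPM in solvent females (adjusted p = 0.52). Of 18 tested members of the list of estrogen receptors and classical targets, 4 were called higher and 3 lower, beside 10.2% and 10.1% of all genes. The median log2 change of the list was 0.07. NCOA1, a steroid receptor coactivator, was the clearest, at 104, 114 and 129.9 CPM in EE2 females against 68.1, 63.3, 63.5, 63.8 and 64.5 CPM in solvent females (log2 change 0.85 ± 0.0685, adjusted p = 1.19e-07). GREB1, an estrogen-induced receptor cofactor, was 2.6-fold higher with EE2 at 4.74 to 14 CPM, against 2.25 to 3.77 CPM in solvent females. The corepressor NCOR1 rose to 176 CPM in EE2 females, against 140 CPM in solvent females, and XBP1 also rose. ESRRG, an orphan receptor related to the estrogen receptors, fell to 14.6 CPM in EE2 females, against 27.2 CPM in solvent females (adjusted p = 1.28e-05), and the coactivator NCOA2 fell to 38.6 CPM, against 53.6 CPM in solvent females, which was not a call on library totals. The progesterone receptor gene PGR, a classical estrogen-induced gene in oviduct, averaged 1.32 CPM in EE2 females and 2.54 CPM in solvent females (adjusted p = 0.0371). That call was lost without EE2 female 1, 7, 8 or 9, without solvent female 3, 5 or 9, on library totals and by limma voom.

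Parts of the secretory pathway had many genes called higher and few or none lower. Secreted proteins enter the ER through the translocon, are folded by chaperones and leave in coated vesicles. Of 24 tested translocon and signal peptide genes, 10 were called higher and 0 lower, with a median log2 change of 0.26. With the replicate number of the titles fitted as a block, 2 were called higher and 0 lower. Only numbers 9 and 10 joined an EE2 female to a solvent female, so this fit had less power for the female effect by its layout. That holds for every call described below as lost with the block. SRPRA, the receptor that docks the ribosome at the ER, read 141 to 171 CPM in EE2 females and 86.3 to 113 CPM in solvent females (log2 change 0.65 ± 0.0907). SSR3, a subunit of the translocon-associated complex, read 211 to 234 CPM in EE2 females and 132 to 157 CPM in solvent females. SRP72 and SRP54, subunits of the signal recognition particle, were 1.43-fold and 1.32-fold higher with EE2. None of these 4 genes overlapped between groups, but the calls on SSR3 and SRP54 were lost with the replicate block.

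Vesicle transport between ER and Golgi had 17 of 37 tested genes called higher and 3 lower (median 0.30; 1 lower without solvent female 5 or 10). With the replicate block, 7 were called higher and 1 lower. COPA, a coat subunit of vesicles returning to the ER, stood at 328, 339 and 389 CPM in EE2 females and 221, 219, 214, 239 and 233 CPM in solvent females (log2 change 0.63 ± 0.0729, adjusted p = 6.75e-06). SEC24D, which selects cargo for export, read 80.5 to 102 CPM in EE2 females and 45.1 to 62.3 CPM in solvent females. The cargo receptors with the largest changes were KDELR3, 2.69-fold higher at 7.84 to 16.4 CPM in EE2 females against 4.03 to 5.92 CPM in solvent females, and TMED3, 2.26-fold higher at 21.1 to 40.6 CPM in EE2 females against 8.15 to 17.2 CPM in solvent females. SAR1A, the GTPase that starts coat assembly, averaged 92.5 ± 7.7 CPM in EE2 females and 70.7 ± 1.22 CPM in solvent females. Its call was lost with the replicate block. Of 25 N-glycosylation genes, 5 were called higher and 3 lower (1 without solvent female 10), beside 10.2% and 10.1% of all genes. Their median was 0.04, with 17 higher and 0 lower on library totals and 1 higher and 0 lower with the replicate block. STT3A, the catalytic subunit that attaches the sugar chain, was 1.39-fold higher, a call lost with the block.

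ER chaperones and disulfide enzymes had 13 of 26 tested genes called higher and 0 lower (median 0.36). HSP90B1 and CALR were among the 10 genes with the largest gain in CPM, and both varied widely within the EE2 group. HSP90B1 read 1239, 1936 and 3105 CPM in EE2 females and 1222, 1204, 1167, 963 and 1216 CPM in solvent females. CALR, a lectin chaperone of the ER lumen, read 1506, 2152 and 2732 CPM in EE2 females and 1587, 1522, 1439, 1304 and 1636 CPM in solvent females, and EE2 female 8 fell inside the solvent range. HSPA5, the main ER chaperone, read 1113 to 2226 CPM in EE2 females and 638 to 828 CPM in solvent females, 2.07-fold higher with EE2, and HYOU1 was 1.5-fold higher. EE2 female 7 had the highest value of all 4 genes, and all 4 lost their call with the replicate block.

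Some regulators of ER load rose. Of 22 tested genes of the unfolded protein response and ER-associated degradation, 9 were called higher and 1 lower. XBP1, a transcription factor of this response, read 118 to 137 CPM in EE2 females and 79.4 to 112 CPM in solvent females. The stress sensor kinase EIF2AK3 was 1.51-fold and HERPUD1, which serves degradation, 1.82-fold higher. The call on HERPUD1 was lost with the replicate block. CEBPB, a transcription factor of liver stress and acute-phase responses, read 148, 158 and 188 CPM in EE2 females and 83.5, 88, 86.7, 65 and 68.5 CPM in solvent females (log2 change 1.06 ± 0.115, adjusted p = 3.56e-06). ATF4, which drives the response to amino acid shortage, gave 232 ± 19.8 CPM in EE2 females and 250.1 ± 34.9 CPM in solvent females (adjusted p = 0.578). CREB3L3, an ER-anchored factor that serves lipid and acute-phase genes in liver, was the member called lower, at 61.9 to 78.5 CPM in EE2 females against 99.1 to 172 CPM in solvent females.

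Many of the ordinary plasma proteins of the liver fell. Of 29 tested carriers, complement and acute-phase genes, 16 were called lower and 3 higher, with a median log2 change of -0.84. ALB read 30010, 45330 and 73180 CPM in EE2 females and 142400, 148000, 146100, 117100 and 178300 CPM in solvent females (log2 change -1.61 ± 0.212, adjusted p = 2.86e-05). TF read 11630, 18900 and 26090 CPM in EE2 females and 47130, 48400, 45480, 36490 and 71600 CPM in solvent females (log2 change -1.45 ± 0.224). All 6 EE2 females were below all 5 solvent females for both, and EE2 females 7 and 9 had the lowest TF values. GC, the vitamin D carrier, averaged 2106 ± 381 CPM in EE2 females and 5495 ± 865 CPM in solvent females. FETUB, a plasma protease inhibitor, was 2.59-fold, and HGFAC, the activator of hepatocyte growth factor, 2.41-fold lower with EE2. ITIH2, which carries hyaluronan, and VTN, vitronectin, were 2.04-fold and 2.03-fold lower. LOC107310113, a locus without a name among the 10 largest losses, averaged 3759 ± 195 CPM in EE2 females and 7640 ± 612 CPM in solvent females.

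Complement genes of the membrane attack complex went in both directions. C8B read 4.88 to 11.1 CPM in EE2 females and 15.4 to 57 CPM in solvent females, a fall of 3.96-fold. C6 read 4.74, 10.9 and 24.9 CPM in EE2 females and 1.24, 3.05, 4.03, 0.723 and 2.68 CPM in solvent females, a log2 change of 2.46 ± 0.685 (adjusted p = 0.0155); 3 EE2 females lay near 5 CPM and 3 near or above 17, and limma voom did not call it.

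Coagulation genes were called lower in 14 of 20 tested members and higher in 1, with a median of -0.85. F9, the vitamin K-dependent factor of the intrinsic route, read 16.8, 38.6 and 47 CPM in EE2 females and 112, 95.1, 150.1, 92 and 171 CPM in solvent females (log2 change -1.75 ± 0.31, adjusted p = 0.000592). Prothrombin, F2, averaged 1524 ± 325 CPM in EE2 females and 2774 ± 537 CPM in solvent females. The anticoagulant protein C, PROC, averaged 266 ± 33.9 CPM in EE2 females and 450.5 ± 96.2 CPM in solvent females, with its highest value in solvent female 10. The fibrinogen chains FGA and FGB were 2.53-fold and 2.5-fold lower with EE2. F10, the protease on which both clotting routes converge, was the member that rose, at 152 to 245 CPM in EE2 females against 130.4 to 161 CPM in solvent females, a 1.43-fold change with overlapping ranges.

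On the list of lipoproteins and lipid droplets, which does not hold APOB, 10 of 23 tested members were called lower, 2 higher and 11 not (median -0.44; 8 lower and 6 higher on library totals). LCAT, the plasma enzyme that esterifies cholesterol on high-density lipoprotein, had the smallest p of the list. It read 77, 95.1 and 119.8 CPM in EE2 females and 421, 318, 412, 326 and 448 CPM in solvent females (log2 change -2.02 ± 0.196, adjusted p = 1.25e-06). APOA1, the protein of high-density lipoprotein, averaged 3463 ± 935 CPM in EE2 females and 10610 ± 2220 CPM in solvent females. Of the lipases, LPL averaged 28.1 ± 6.07 CPM in EE2 females and 86.9 ± 13.6 CPM in solvent females, and LIPC, hepatic lipase, averaged 715 ± 131 CPM in EE2 females and 1381 ± 143 CPM in solvent females. The intestinal-type carrier FABP2 averaged 2.73 CPM in EE2 females and 21.1 CPM in solvent females, with overlapping ranges (adjusted p = 0.00944). Its log2 change of -2.93 was -2.18 without solvent female 9, and limma voom did not call it.

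Genes of fatty acid oxidation fell. Of 33 tested genes, 25 were called lower and 0 higher, with a median of -0.62; on library totals 18 were called lower and 2 higher. CPT1A, which admits fatty acids to mitochondria, read 249, 262 and 335 CPM in EE2 females and 593, 415, 512, 466 and 699 CPM in solvent females, with no overlap (log2 change -0.98 ± 0.162, adjusted p = 0.000276). PPARA, the fasting receptor that drives these genes in mammals, averaged 30.3 ± 3.97 CPM in EE2 females and 57.2 ± 11.2 CPM in solvent females. ACAD11, an acyl-CoA dehydrogenase, averaged 72.3 ± 4.56 CPM in EE2 females and 129 ± 15.3 CPM in solvent females.

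Fatty acid and triglyceride synthesis had 9 of 25 tested genes called higher and 3 lower (median 0.33). ACLY, which supplies cytosolic acetyl-CoA, read 234, 276 and 651 CPM in EE2 females and 159, 174, 156, 138 and 199 CPM in solvent females, with EE2 female 8 more than 2 times any other. ELOVL7, an elongase, ranged from 7.66 to 12.9 CPM in EE2 females, against 3.19 to 6.97 CPM in solvent females. SLC25A1, which exports the citrate that ACLY uses, was called lower, at 312 to 416 CPM in EE2 females against 525 to 758 CPM in solvent females. Phospholipid synthesis had 5 of 24 genes called higher and 2 lower, beside 10.2% and 10.1% of all genes. The 5 became 2 without solvent female 5 or solvent female 10 and 3 without solvent female 3 or 9 or EE2 female 2 or 9. The 2 became 1 without solvent female 6 or 10. PCYT1A and SELENOI, which act in making phosphatidylcholine and phosphatidylethanolamine, were 1.38-fold and 1.51-fold higher, with no overlap between groups.

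Cholesterol synthesis and uptake had 12 of 28 tested genes called higher and 6 lower (median 0.26); the 6 became 3 without solvent female 10. LSS, which closes the sterol rings, read 11.3 to 24.9 CPM in EE2 females and 4.58 to 8.94 CPM in solvent females. EE2 female 8 was lowest and EE2 female 7 highest of the EE2 group for it. SREBF2, the transcription factor of sterol synthesis, averaged 82.9 ± 16.2 CPM in EE2 females and 50.2 ± 6.1 CPM in solvent females. ABCG5, which pumps sterols into bile, fell to 4.85 CPM in EE2 females, against 12.5 CPM in solvent females. Bile acid genes fell in 6 of 12 tested members and rose in 1. KLB, the co-receptor for the bile acid-regulating hormone FGF19, averaged 82.1 ± 17.7 CPM in EE2 females and 174 ± 13.1 CPM in solvent females. AKR1D1, an enzyme of bile acid synthesis, was 2.17-fold lower, and ABCB11, the bile salt export pump, 2.47-fold lower. SLC51B, a subunit of the basolateral bile acid exporter, was the one that rose, at 29.5 to 58.9 CPM in EE2 females against 3.7 to 26.5 CPM in solvent females.

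Glucose and glycogen genes were called lower in 10 of 22 tested members and higher in 1 (median -0.39; 6 lower and 6 higher on library totals). PC, pyruvate carboxylase, the entry step of gluconeogenesis, averaged 1411 ± 119 CPM in EE2 females and 3025 ± 712 CPM in solvent females. SLC37A4, which carries glucose-6-phosphate into the ER, averaged 406 ± 49 CPM in EE2 females and 915 ± 122 CPM in solvent females. G6PC2, a glucose-6-phosphatase, averaged 1.56 CPM in EE2 females and 4.48 CPM in solvent females. The glycolytic genes GAPDH and LDHB were among the most abundant of both groups; GAPDH was 1.74-fold lower with EE2 with no overlap, and LDHB 1.48-fold lower with overlap (adjusted p = 0.0409). The call on LDHB was lost without any 1 of EE2 females 1, 7, 9 and 10 and solvent females 3, 5, 6 and 10, and on library totals.

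Many genes of amino acid breakdown fell. Of 34 tested genes of breakdown and nitrogen disposal, 18 were called lower and 3 higher (median -0.46); on library totals 12 were lower and 3 higher. KMO, of the tryptophan route, read 43.4, 55.3 and 61.7 CPM in EE2 females and 123, 121, 121, 128 and 174 CPM in solvent females (log2 change -1.33 ± 0.132, adjusted p = 1.44e-06). FTCD, of histidine breakdown, read 78.5 to 125 CPM in EE2 females and 234 to 362 CPM in solvent females. DMGDH, which takes a methyl group from dimethylglycine into the folate pool, read 184 to 384 CPM in EE2 females and 498 to 1056 CPM in solvent females. The 3 that rose were GLDC, TAT and CPS1. GLDC, the glycine-cleaving enzyme, read 135, 239 and 269 CPM in EE2 females and 57.5, 90.6, 91.8, 48.9 and 90.3 CPM in solvent females (log2 change 1.5 ± 0.277). TAT, which starts tyrosine breakdown, was 1.57-fold higher with no overlap. CPS1, the first enzyme of the urea cycle, read 1.88, 16.4 and 37.7 CPM in EE2 females and 2.15, 1.7, 2.36, 1.51 and 3.02 CPM in solvent females, so that EE2 females 9 and 10 lay within the solvent range and limma voom did not call it.

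Of 24 tested genes of amino acid synthesis and tRNA charging, 3 were called higher and 4 lower (12 higher and 3 lower on library totals), beside 10.2% and 10.1% of all genes. The 3 became 1 without solvent female 10, 6 without EE2 female 1 and 5 without EE2 female 10. The serine and glycine enzymes PHGDH, SHMT1 and SHMT2 fell to 772, 553 and 704 CPM in EE2 females, against 1263, 989 and 1374 CPM in solvent females, with no overlap between groups. Of 19 amino acid transporters tested, 4 were called higher and 2 lower, beside the same shares of all genes. SLC38A3 and SLC38A4, glutamine and neutral amino acid carriers of hepatocytes, fell to 64.4 and 327 CPM in EE2 females, against 133 and 579 CPM in solvent females. SLC7A11, which imports cystine, read 0.921 to 3.68 CPM in EE2 females and 0 to 0.302 CPM in solvent females. SLC1A4, a neutral amino acid carrier, read 7.73 to 29.2 CPM in EE2 females, the highest in EE2 female 8, and 2.76 to 6.03 CPM in solvent females.

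**Figure D4:**
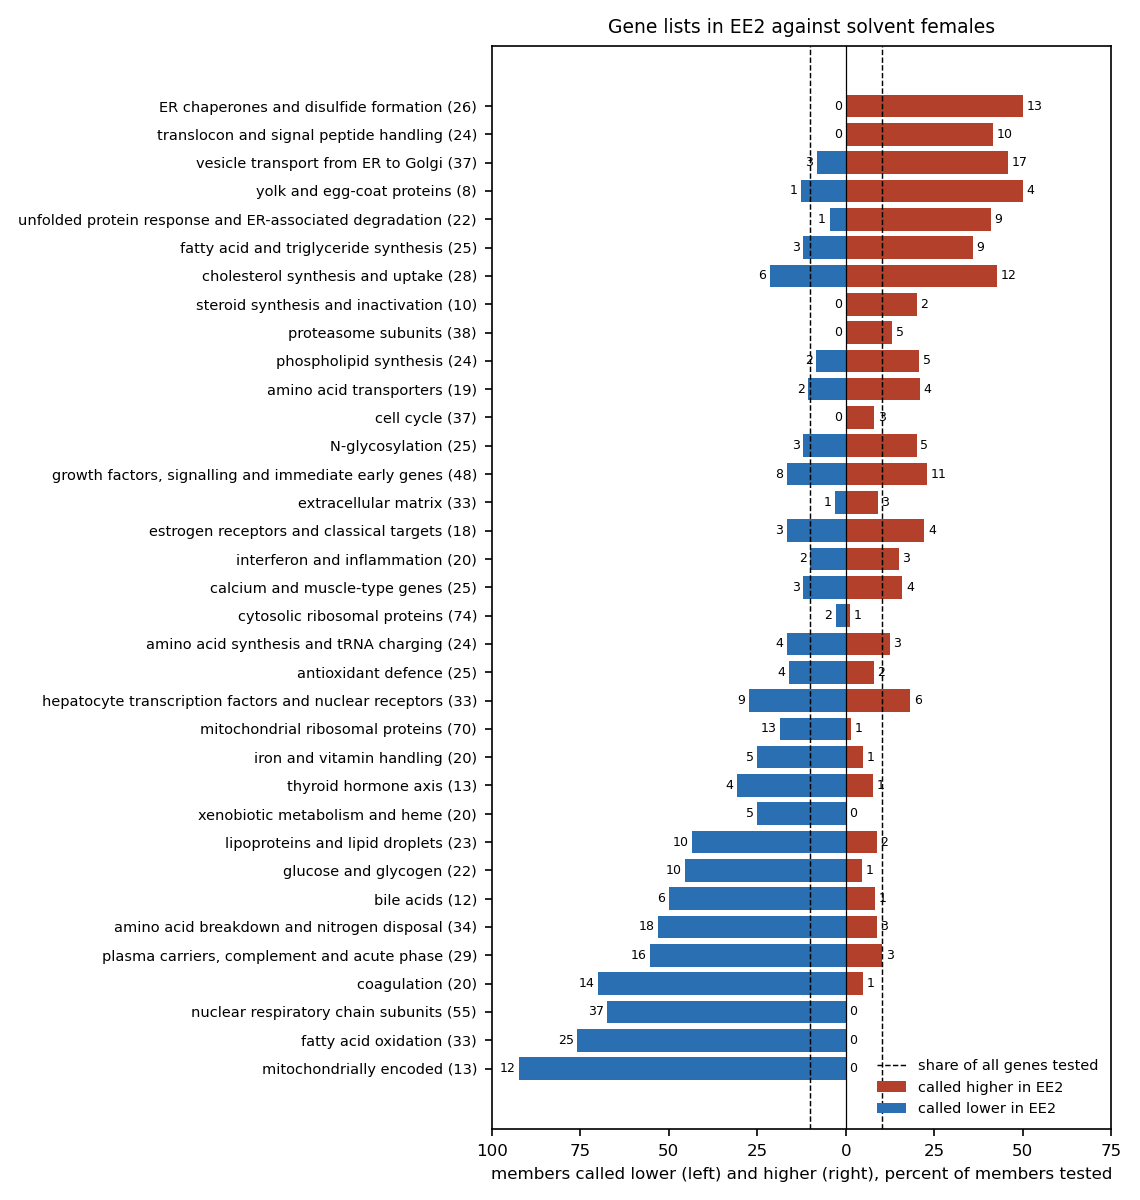
Share of the tested members of each pathway list called lower (blue, left) and higher (red, right) in EE2 females, in percent; the numbers beside the bars are counts of genes, the number in brackets is how many members were tested, and the dashed lines mark the shares of all 13501 genes (10.1% lower, 10.2% higher). Chaperones, translocon and vesicle transport stand at the top, with 13, 10 and 17 genes higher, and fatty acid oxidation, respiratory chain and mitochondrially encoded genes at the bottom, with 25, 37 and 12 genes lower. The lists were chosen with earlier results of these data known and were counted, not tested.

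Genes of mitochondrial respiration fell by small amounts. Of 55 tested nuclear genes for subunits of the respiratory chain and ATP synthase, taken by symbol pattern, 37 were called lower and 0 higher (median -0.42); 23 were lower without solvent female 10, and on library totals 11 were lower and 1 higher. NDUFA10 and NDUFB4, of complex I, averaged 364 and 134 CPM in EE2 females, against 579.6 and 242 CPM in solvent females. ATP5F1A, of ATP synthase, averaged 1256 ± 79 CPM in EE2 females and 1819 ± 218 CPM in solvent females. Of the 13 genes encoded in the mitochondrial genome, 12 were called lower and 0 higher (median -0.62), and 6 were lower on library totals. COX1 read 15150, 17540 and 21300 CPM in EE2 females and 19350, 25950, 24580, 21930 and 36180 CPM in solvent females, with overlap, and was not a call on library totals. ND5 read 3844, 4432 and 4989 CPM in EE2 females and 6177, 7699, 6233, 6437 and 9898 CPM in solvent females, without overlap, and COX3 and CYTB were 1.54-fold and 1.6-fold lower. Solvent female 10 had the highest value of all 4 genes. Mitochondrial ribosomal proteins were called lower in 13 of 70 and higher in 1 (2 without solvent female 3 or EE2 female 10, 3 without EE2 female 1), but 5 were lower without solvent female 10 and on library totals 0 were lower and 30 higher, so their direction depends on the scaling.

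The cytosolic translation machinery lay near 0 with TMM scaling and above it on library totals. Of 74 cytosolic ribosomal protein genes, 1 was called higher and 2 lower (median -0.05; 1 lower without solvent female 9 or 10, 4 without solvent female 5 or 6), while on library totals 45 were higher and 1 lower. RPL22L1, a paralog of RPL22, was the one that rose, at 155 to 193 CPM in EE2 females against 99.4 to 138 CPM in solvent females, and RPS27L was one of those that fell, at 92.3 to 142 CPM in EE2 females against 159 to 269 CPM in solvent females. EEF1A1, the elongation factor, averaged 6212 ± 343 CPM in EE2 females and 6223 ± 538 CPM in solvent females (adjusted p = 0.987). Of 38 proteasome subunits, 5 were called higher and 0 lower; that count fell to between 1 and 3 without any 1 of solvent females 3, 5, 6 and 10 or EE2 females 2, 7 and 9, and was 33 on library totals. Where a list had 0 genes called in one direction by edgeR, 0 to 3 of its members had an unadjusted p under 0.05 in that direction, limma voom called 0 and DESeq2 called 0, except for 1 proteasome gene called lower by DESeq2.

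Transcription factors of hepatocytes were split. Of 33 tested hepatocyte factors and nuclear receptors, 6 were called higher and 9 lower (median -0.14, and 0.15 on library totals, with 12 higher and 3 lower). CEBPA, a main driver of mature hepatocyte genes, read 115, 132 and 142 CPM in EE2 females and 284, 255, 261, 219.5 and 304 CPM in solvent females (log2 change -1.02 ± 0.113, adjusted p = 4.61e-06). HNF4A and ONECUT1 averaged 25.2 ± 2.32 and 20.1 ± 3.26 CPM in EE2 females, against 40.0 ± 2.95 and 31 ± 2.72 CPM in solvent females, and the pioneer factor FOXA2 averaged 28.4 ± 3.33 CPM in EE2 females and 39.5 ± 3.65 CPM in solvent females, which was not a call on library totals. The retinoic acid receptor RARA had the smallest p of the list: it read 68.3, 77.9 and 95.6 CPM in EE2 females and 35.9, 31.5, 31.7, 35 and 30.9 CPM in solvent females (log2 change 1.29 ± 0.0986, adjusted p = 4.96e-08). The orphan receptor NR2F1 was 1.73-fold and KLF6, an injury-induced zinc finger factor, 2.52-fold higher, each with no overlap.

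Genes of growth factor signalling, with the immediate early genes, went in both directions. Of 48 tested, 11 were called higher and 8 lower, with a median log2 change of 0.0. JUN, a subunit of the AP-1 factor, read 44.6, 53.7 and 81.3 CPM in EE2 females and 16.8, 15.9, 13.2, 15.7 and 14.6 CPM in solvent females (log2 change 1.97 ± 0.238, adjusted p = 1.32e-05). Its partner FOS and the early genes EGR1 and MYC averaged 3.38, 20.3 and 30.4 CPM in EE2 females, against 1.19, 6.81 and 13.7 CPM in solvent females. All 6 EE2 females were above all 5 solvent females for each of these 4 genes. The ligands of the epidermal growth factor receptor EREG and HBEGF rose 5.25-fold and 2.39-fold, while the receptor EGFR fell to 15.8 CPM in EE2 females, against 34.4 CPM in solvent females. GHR, the growth hormone receptor, averaged 116 ± 11.3 CPM in EE2 females and 217 ± 33.6 CPM in solvent females. INHBA, the activin subunit, read 0.449 to 2.6 CPM in EE2 females and 3.36 to 9.4 CPM in solvent females. GADD45G, a growth arrest gene in the cell cycle list, read 5.36, 6.71 and 8.42 CPM in EE2 females and 0.302, 0.177, 0.312, 1.31 and 0.468 CPM in solvent females; its log2 change of 3.87 ± 0.495 was 4.46 without solvent female 9. On the cell cycle list 3 of 37 genes were called higher, GADD45G included, and 0 lower (1 without EE2 female 7), beside 10.2% and 10.1% of all genes. GDF15, a stress-induced hormone, read 6.94 to 14.4 CPM in EE2 females and 1.08 to 3.36 CPM in solvent females.

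On the list of interferon and inflammation, 3 of 20 tested genes were called higher and 2 lower, beside 10.2% and 10.1% of all genes. The median log2 change was -0.17. The 3 were NFKBIA, TNFAIP3 and CISH, which damp NF-kB and cytokine signalling and averaged 10.2, 5.89 and 6.56 CPM in EE2 females, against 5.13, 2.6 and 2.42 CPM in solvent females. The count of 2 lower became 1 without any 1 of 7 libraries, solvent females 3, 9 and 10 and EE2 females 7, 8, 9 and 10. The interleukin-6 receptor IL6R was called lower and averaged 106 ± 16.4 CPM in EE2 females and 181 ± 27.7 CPM in solvent females.

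The 12 deepest named falls without overlap between groups were of genes that averaged from 1.07 CPM (C1QL4) to 92.2 CPM (METTL27) in solvent females. SAG, the arrestin of photoreceptors, read 0, 0.030 and 0.285 CPM in EE2 females and 2.3, 1.49, 1.01, 6.51 and 2.81 CPM in solvent females; its log2 change of -5.08 ± 0.654 was -6.06 without EE2 female 7. C1QL4, a secreted C1q-like protein, read 0 to 0.162 CPM in EE2 females and 0.347 to 2.13 CPM in solvent females. METTL27, a putative methyltransferase, was the most abundant of the 12 largest named falls, at 10.2, 12.9 and 23 CPM in EE2 females against 57.5, 86.7, 86.7, 117 and 113 CPM in solvent females (log2 change -2.64 ± 0.28, adjusted p = 3.56e-06). PERCC1, a gene needed for gut hormone cells in mammals, read 1.84 to 4.94 CPM in EE2 females and 17.6 to 29.3 CPM in solvent females. PDE2A, which degrades cyclic nucleotides, read 2.74 to 5.39 CPM in EE2 females and 9.27 to 43.3 CPM in solvent females, and CALHM3, a taste-cell channel subunit, read 0.443 to 6.84 CPM in EE2 females and 8.86 to 48.4 CPM in solvent females. BCL11B and VSTM2B averaged 0.734 and 2.73 CPM in EE2 females, against 3.91 and 13.2 CPM in solvent females. Among loci without names, LOC107317629 averaged 1.04 CPM in EE2 females and 13.7 CPM in solvent females, and LOC107323033 averaged 0.549 CPM in EE2 females and 6.53 CPM in solvent females. LOC107310823 had 2 counts over all EE2 females and 0.377, 3.9, 3.02, 0.132 and 0.17 CPM in the solvent females, 2 of which held nearly all of its counts; its log2 change of -6.72 was -6.02 without solvent female 5. LOC107315443 fell by 3.97 on the log2 scale, which was a change of -2.26 without solvent female 5.

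Several of the deepest falls were of calcium-handling genes best known from muscle. TNNC1, troponin C of slow and cardiac muscle, read 1.42, 2.15 and 4.15 CPM in EE2 females and 11.6, 16.6, 26.3, 19.4 and 41.3 CPM in solvent females (log2 change -3.14 ± 0.354, adjusted p = 6.45e-06). SRL, sarcalumenin, a calcium-binding protein of the sarcoplasmic reticulum, read 0.569, 2.39 and 6.6 CPM in EE2 females and 18.9, 24.8, 54, 13.2 and 20.9 CPM in solvent females. RYR3, a ryanodine receptor that releases stored calcium, read 2.86, 4.05 and 9.05 CPM in EE2 females and 26, 20.5, 67.2, 16.2 and 41.2 CPM in solvent females. These were the 3 genes called lower of 25 tested on the list of calcium and muscle-type genes, where 4 were called higher, a number that was 1 without solvent female 10 and 2 without solvent female 5 or EE2 female 7 or 9. ITPR1, the inositol trisphosphate receptor, was one of the 4, at 13 to 18.5 CPM in EE2 females against 7.61 to 13.2 CPM in solvent females. The other muscle markers were not called lower with TNNC1: of 10 tested, 1 was called lower (TNNC1) and 1 higher (MYL4, 2.24-fold), and their summed level was 64.1 to 95 CPM in EE2 females and 72.2 to 101.6 CPM in solvent females. The part of muscle tissue in these values was not tested.

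Thyroid and iodide genes were called lower in 4 of 13 tested members and higher in 1, beside 10.1% and 10.2% of all genes. SLC5A5, the iodide transporter, read 0.238, 0.62 and 1.4 CPM in EE2 females and 1.81, 5.43, 9.02, 5.39 and 4.29 CPM in solvent females (log2 change -2.97 ± 0.45, adjusted p = 0.000114). DIO1, the deiodinase that activates thyroxine, averaged 39.9 ± 6.11 CPM in EE2 females and 60.3 ± 2.11 CPM in solvent females. THRB, a thyroid hormone receptor, averaged 6.62 CPM in EE2 females and 3.65 CPM in solvent females (adjusted p = 0.0194), a call lost without solvent female 3.

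Iron and vitamin genes fell in 5 of 20 tested members and rose in 1, and the 5 became 8 without solvent female 3 and the 1 became 2 without EE2 female 8; on library totals 4 were lower and 5 higher. HJV and TMPRSS6, which set the level of the iron hormone hepcidin, averaged 14.8 ± 2.82 and 249 ± 82.9 CPM in EE2 females, against 42.5 ± 8.78 and 472 ± 37.5 CPM in solvent females. SLC11A2, a transporter of ferrous iron, was the one that rose, at 105 to 327 CPM in EE2 females against 68.5 to 118 CPM in solvent females, with overlap. Antioxidant genes were called higher in 2 of 25 and lower in 4, beside 10.2% and 10.1% of all genes. The 4 became 2 without solvent female 10, and on library totals 7 were higher and 2 lower. TXNRD1, thioredoxin reductase, read 3.61, 6.8 and 9.28 CPM in EE2 females and 1.13, 1.1, 0.972, 1.38 and 1.15 CPM in solvent females (log2 change 2.48 ± 0.311, adjusted p = 1.75e-05). SOD1 and GPX4, which remove superoxide and lipid peroxides, were 1.85-fold and 1.58-fold lower. Of 20 tested genes of xenobiotic metabolism and heme, 5 were called lower and 0 higher (1 without EE2 female 1 or 10; 3 lower and 5 higher on library totals), among them the dioxin receptor gene AHR, at 36.7 to 64 CPM in EE2 females against 74.7 to 99.9 CPM in solvent females, and ALAD, of heme synthesis, at 29.4 to 42.2 CPM in EE2 females against 46.5 to 64.4 CPM in solvent females, which was not a call on library totals. Of 10 tested genes of steroid synthesis and inactivation, 2 rose and 0 fell, beside 10.2% and 10.1% of all genes. HSD17B12, one of the 2 and an enzyme of steroid and fatty acid metabolism, read 74.4 to 89.5 CPM in EE2 females and 51 to 72.8 CPM in solvent females.

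Of 33 matrix genes, 3 were called higher and 1 lower, a share higher close to that of all genes, with a median log2 change of 0.33; on library totals 17 were higher and 1 lower. Without solvent female 9 the number higher was 7, and without solvent female 6 or EE2 female 7 it was 5; the number lower was 2 without EE2 female 8. COL18A1, a basement membrane collagen of hepatocytes, read 115, 127 and 156 CPM in EE2 females and 274, 255, 247, 302 and 302 CPM in solvent females (log2 change -1.08 ± 0.102, adjusted p = 9.52e-07). COL14A1, TIMP2 and LOX, of fibrillar collagen and its turnover, averaged 162 ± 50.8, 90.6 ± 22.3 and 47.9 ± 27.5 CPM in EE2 females, against 84.1 ± 17.6, 47.5 ± 10.6 and 20.7 ± 3.61 CPM in solvent females.

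Marker genes of other cell types gave the following values beside these results. Of 10 hepatocyte markers tested, 6 were called lower and 3 higher, with a summed level of 71550 to 121100 CPM in EE2 females and 149500 to 216100 CPM in solvent females. Of the erythroid (5 tested), macrophage (8) and endothelial (14) markers, edgeR, DESeq2 and limma voom called 0, and at an unadjusted p under 0.05 edgeR gave 0, 0 and 2. Without EE2 female 7, 2 erythroid markers were called lower. Erythroid markers summed to 143 to 366 CPM in EE2 females and 199 to 470.3 CPM in solvent females, macrophage markers to 117 to 204 CPM in EE2 females and 124 to 182 CPM in solvent females, and endothelial markers to 594 to 777 CPM in EE2 females and 639 to 783 CPM in solvent females. These sums overlapped between the groups. Only 5 of 16 erythroid entries were matched, without any hemoglobin symbol of the list, GATA1, KLF1, ALAS2 or EPOR, so blood-cell content was measured in part only. The median log2 change was -0.44 for the erythroid, 0.14 for the macrophage and -0.07 for the endothelial markers. The median erythroid sum was 230 CPM in EE2 females and 386 CPM in solvent females. Of 15 mesenchymal markers, 2 were called higher and 1 lower, beside 10.2% and 10.1% of all genes. Their sums were 2438 to 4572 CPM in EE2 females and 2011 to 3209 CPM in solvent females. The number higher was 0 without solvent female 10 and 1 without solvent female 3 or 5 or EE2 female 1. The one lower was RELN, of hepatic stellate cells and the nervous system, at 295 to 634 CPM in EE2 females against 749.5 to 898 CPM in solvent females. Of 5 biliary markers, SPP1 and SOX9 were higher and EPCAM lower, with sums of 121 to 240.5 CPM in EE2 females and 144 to 176 CPM in solvent females. SPP1, osteopontin, read 33.1, 56.8 and 111 CPM in EE2 females and 13.4, 14.2, 10.5, 11.8 and 10.9 CPM in solvent females (log2 change 2.40 ± 0.307), SOX9 averaged 14.6 CPM in EE2 females and 3.96 CPM in solvent females, and EPCAM averaged 84.6 CPM in EE2 females and 128 CPM in solvent females, the last not a call on library totals. Of 5 gut and pancreas markers, VIL1 was called higher and FABP2 and CDX2 lower, with sums of 186 to 646 CPM in EE2 females and 208 to 406 CPM in solvent females. CDX2 averaged 0.145 CPM in EE2 females and 0.938 CPM in solvent females, a call lost without solvent female 6, and VIL1 averaged 2.03 CPM in EE2 females and 0.473 CPM in solvent females. Of 5 kidney markers CUBN was called, and their sum was 39.2 to 147 CPM in EE2 females and 32.1 to 86.3 CPM in solvent females. Of 5 granulocyte and lymphoid markers, with sums of 16 to 22.9 CPM in EE2 females and 15.3 to 19.7 CPM in solvent females, CXCR4 was called higher, at 1.99 to 5.94 CPM in EE2 females against 0.694 to 2.21 CPM in solvent females. The part of changed cell shares in the gene results was not tested.

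The female effect was set against the male one in the same fit. The difference between the female and the male effect was called for 143 genes (1.06%), 35 higher (0.259%) and 108 lower (0.8%) in the female effect. Of the genes called in females, 217 of the 1375 higher and 94 of the 1362 lower were also called in males in the same direction, and 0 in the opposite one, with 4 EE2 males and 5 solvent males and 441 genes called in males in all (3.27%; 2.24% higher and 1.03% lower). At an unadjusted p under 0.05 the male change had the same sign in 899 of the 2737 and the other sign in 25. Whatever its p, the male change had the same sign in 2247. The same counts over all genes tested are not given here, so these numbers do not show how far the sexes agree beyond genes at large. Single libraries moved the number of called differences. It was 21 without EE2 male 4, 24 without EE2 male 3, 43 without solvent female 10, 50 without solvent female 6 and 53 without EE2 female 9, and lay between 62 and 95 without any 1 of solvent females 3 and 5, EE2 females 7, 8 and 10, EE2 male 6 and solvent males 1, 2, 4 and 7.

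The named differences below are 31 of the 143. None changed sign in any other fit, but few kept their call throughout: 5 were called with any 1 of the 20 libraries left out (ALB, TNNC1, RYR3, SCG2 and LOC107319873), 11 were lost in 1 to 9 of the 20 fits and 15 in 10 or more. By limma voom 17 of the 31 were called, with ALB, TNNC1 and RYR3 among them but not SCG2 or LOC107319873. With the replicate number of the titles fitted as a block, 0 differences were called. Only numbers 9 and 10 joined an EE2 female to a solvent female, and only number 4 an EE2 male to a solvent male. The other numbers joined an EE2 library to a solvent library of the opposite sex. Alone those cannot separate the female from the male effect, so this fit had little power and its 0 cannot decide the differences. On library totals 26 were called, and ACAD11, KLB, COL18A1, SLC38A3 and SOD1 were not.

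At the leading loci the smaller fold in females went with a higher level in solvent females. LOC107319873 read 12650 to 22130 CPM in EE2 females and 4555 to 25390 CPM in EE2 males, which overlap, but 2.34 to 19 CPM in solvent females and 0.172 to 0.439 CPM in solvent males, which do not. Its difference, female effect minus male effect, was -5.22 log2 units (adjusted p = 0.0122). LOC107317352 and ZPD showed the same layout, with 0.383 to 24.6 CPM and 0.383 to 4.08 CPM in solvent females and 0.181 to 0.913 CPM and 0 to 0.15 CPM in solvent males. The lowest solvent female at LOC107317352, number 10, lay within the male range. ZP1 read 46.4 to 117 CPM in solvent females and 1.39 to 16.1 CPM in solvent males, and 189 to 386 CPM in EE2 females and 112 to 234 CPM in EE2 males. LOC107317565 had the same order, and its difference was -2.59 (adjusted p = 0.0468). That difference was lost in 16 of the 20 fits with 1 library left out. Limma voom called the difference at ZP1 but not at LOC107319873, LOC107317352, ZPD or LOC107317565.

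Some of the falls described above were larger in females. ALB changed by -1.61 in females and 0.13 in males (difference -1.74, adjusted p = 0.0232); EE2 males read 150700, 108400, 87280 and 107000 CPM, which overlapped with solvent males at 76590 to 134300 CPM. GC, FETUB, HGFAC and VTN differed by -1.0, -1.04, -1.05 and -0.95, each with a deeper fall in females. The same held for LPL (-1.13), KMO (-0.93), SLC38A3 (-0.72), ACAD11 (-0.59), KLB (-0.92), HJV (-1.09), COL18A1 (-0.69), SOD1 (-0.77) and LOC107310113 (-0.73). Of the 20 fits with 1 library left out, SOD1 lost this call in 17, FETUB and KLB in 16, and LPL and ACAD11 in 15. HJV lost it in 14, VTN and SLC38A3 in 13, COL18A1 in 12 and LOC107310113 in 11. GC lost it in 6, KMO in 5 and HGFAC in 4. Limma voom did not call the differences of LPL, ACAD11, HJV and SOD1. The calcium genes differed more: TNNC1 changed by -3.14 in females and -0.20 in males (adjusted p of the difference 0.0178), and RYR3 by -2.84 in females and 0.66 in males (adjusted p of the difference 0.0176). Of the 10 muscle markers, 1 was called higher and 1 lower in females (median 0.38), against 4 higher and 0 lower in males (median 2.78), and their part in these differences was not tested. SAG changed by -5.08 in females and -1.25 in males, a difference lost in 15 of the 20 fits and not called by limma voom. LOC107310823 and LOC107317629 differed by -8.41 and -2.98.

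Rises seen in females without a called male change included EREG (2.39 in females and -0.25 in males), SPP1 (2.40 in females and 0.03 in males), GDF15 (2.33 in females and 0.07 in males) and the calcium channel subunit CACNA1H (1.55 in females and -0.32 in males); the differences had adjusted p of 0.0402, 0.0232, 0.0417 and 0.0298. In the same order, they were lost in 12, 1, 15 and 4 of the 20 fits with 1 library left out. Limma voom called those of SPP1 and GDF15 but not those of EREG and CACNA1H. In 3 named genes with a called difference the female effect itself was not called. PCK1, the gluconeogenic enzyme, changed by 2.03 in females (adjusted p = 0.0769) and -3.04 in males; its female value was 1.32 without EE2 female 8. The called difference of PCK1 was lost in 18 of the 20 fits with 1 library left out. SCG2, a secretory granule protein, changed by -1.02 in females and 3.75 in males, and DIO2, a deiodinase, by -0.40 in females and 2.98 in males. In females both were rare messages. SCG2 averaged 0.668 CPM in EE2 females and 1.37 CPM in solvent females, and DIO2 0.565 CPM and 0.76 CPM. The female change of SCG2 passed without EE2 female 8 (-1.58).

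**Figure D5:**
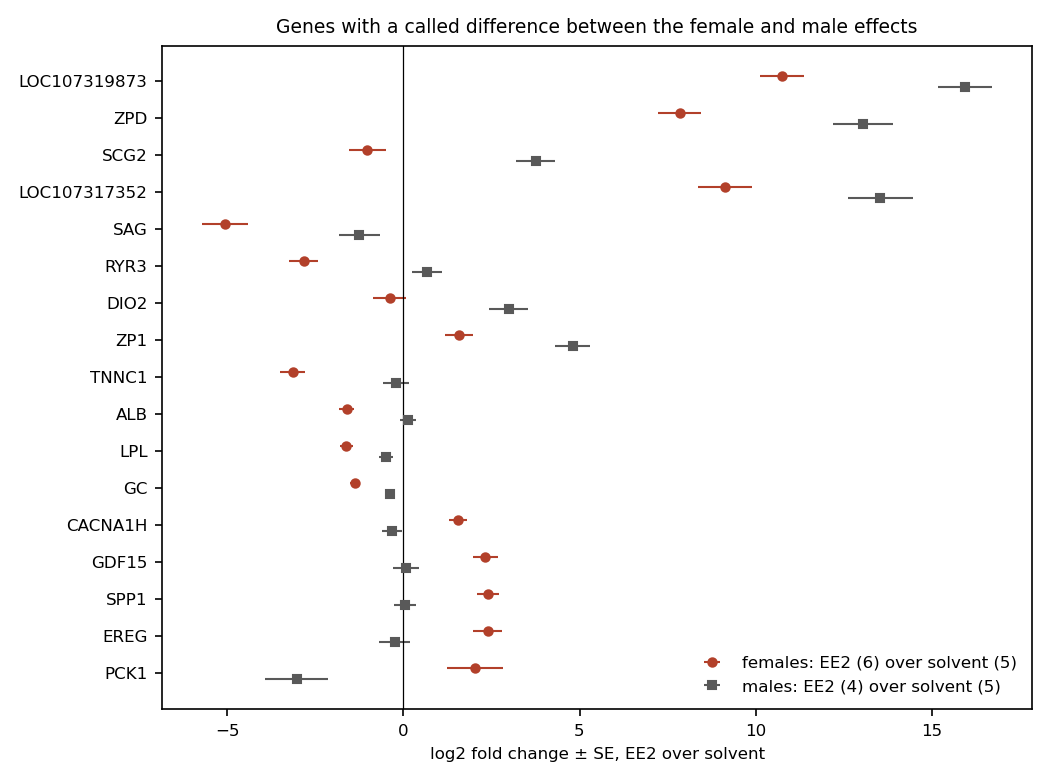
Log2 fold change of EE2 over solvent with its standard error (horizontal axis) in females (red circles, 6 EE2 and 5 solvent) and in males (grey squares, 4 EE2 and 5 solvent) for 17 genes whose difference between the effects was called. The leading loci and ZP1 rise in both sexes with the larger fold in males, while ALB, TNNC1 and RYR3 fall in females and stay within 1 log2 unit of 0 in males.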

How the data were processed

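Liver RNA of 20 quail embryos was sequenced, and the authors deposited estimated counts per coding sequence. Per the submitters' processing notes these come from kallisto; its version, transcript set and genome build are not given in the sources used here. Of the deposited values 52.64% were whole, since reads that match several transcripts are shared out in fractions, and values of near-identical genes are uncertain for that reason. Both deposited tables held the same values for all 40934 coding sequences.

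Estimated counts were summed per gene identifier and rounded, which gave 16066 genes, all matched to a gene table of the assembly Coturnix japonica 2.1 that supplied symbols and gene order. Filtering by expression (edgeR filterByExpr, minimum count 10, minimum total 15) left 13501 genes and 99.9837% of the counts. Libraries held 15298506 to 30673847 estimated counts in females. Within groups, 0 pairs of libraries were identical and their chi-square per gene was at least 30.66, so each counted as a sample.

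A single model of the 4 group means was fitted to all 20 libraries with edgeR 4.0.16 (R 4.3.3). Scaling was by the trimmed mean (TMM), and the quasi-likelihood test was robust and two-sided, with Benjamini-Hochberg adjustment over all genes tested and a threshold of 0.05. The biological coefficient of variation was 0.245. The code was tested on simulated counts with known changes. Rises and falls were equal in number there, so that test does not bear on the scaling of these libraries. Standard errors come from the fold change and its F statistic, and CPM use TMM-scaled library sizes. Values after ± beside CPM are SD over the 6 EE2 or 5 solvent females. Intervals on ratios of few counts cover counting error only, because reads are not independent molecules.

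Named genes are the 12 highest and 12 lowest changes among called, named genes with at least 1 CPM in the higher group and groups that did not overlap; the 6 highest and 4 lowest loci without a name; the 10 most abundant genes of each group; the 10 largest gains and the 10 largest losses in CPM; the first members of each list by p; and the 5 highest and 5 lowest named differences between the effects in females and males. A few genes that these rules name are not reported here. TCN2's neighbours and other genes outside these rules were chosen after their values were seen. The 40 gene lists held 1082 entries, of which 855 were matched and 819 tested, and 5 lists taken by symbol pattern were added. The members and the lists were chosen with earlier results of these data known, and lists were counted, not tested. Alternatives were DESeq2 1.42.0 (size factors in the edgeR fit, and its Wald test), upper-quartile scaling, limma 3.58.1 with voom, no filter, a filter of 1 CPM in at least 4 libraries, only the female libraries, the replicate number as a block, and each library left out in turn. Scaling by library totals was added after seeing the data. No sequences or coordinates are given.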

Additional observations from a re-analysis of the deposited data

Results flagged for a closer look

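In 384 sets of values (a named gene's CPM or a library measure, within EE2 females or within solvent females) the highest or lowest sample was compared with the rest by Dixon's gap test, and 36 stood apart. Chance flags about 1 in 20 such sets. Among library measures, solvent female 9 had the lowest total, 15298506 estimated counts.

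EE2 female 8 stood apart in 9 genes. It was the highest EE2 female for FAXDC2 (91.8 CPM), CPT1A (335 CPM), ACLY (651 CPM), SLC1A4 (29.2 CPM), EGFR (26.9 CPM), CACNA1H (23 CPM), SCG2 (1.74 CPM), PCK1 (6.11 CPM) and VIL1 (4.28 CPM). EE2 female 7 was the highest for LOC107317574 (10050 CPM) and SSR3 (234 CPM), EE2 female 2 for HHIPL2 (19.1 CPM) and EE2 female 1 for LIPC (964 CPM).

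Solvent female 10 was the highest solvent female for FGF23 (0.34 CPM), PROC (618 CPM), SLC25A1 (758 CPM), SLC37A4 (1128 CPM), KMO (174 CPM), SLC38A3 (158 CPM), ONECUT1 (35.8 CPM), PCK1 (1.02 CPM), CYTB (11450 CPM) and AANAT (0.128 CPM). Solvent female 9 was the highest for ELOVL2 (2.17 CPM), RPL22L1 (138 CPM) and GADD45G (1.31 CPM), and the lowest for HSP90B1 (963 CPM) and CISH (0.46 CPM). Solvent female 3 was the lowest for SUN2 (12.5 CPM) and the highest for NCOA1 (68.1 CPM) and EGR1 (11.7 CPM). Solvent female 5 was the highest for LOC107314278 (1.21 CPM) and LOC107315443 (7.45 CPM), and solvent female 6 for LOC107317574 (0.52 CPM) and SRL (54.0 CPM).

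The interaction term, female effect minus male effect, was called for 31 named genes. The effect was larger in females for EREG (2.64 log2 units), GDF15 (2.25), SPP1 (2.37), CACNA1H (1.87) and PCK1 (5.07). It was smaller or more negative in females at the leading loci LOC107317565 (-2.59), LOC107317352 (-4.41) and LOC107319873 (-5.22), at ZPD (-5.20) and ZP1 (-3.23), and in SCG2 (-4.78), DIO2 (-3.38), SAG (-3.82), RYR3 (-3.50), TNNC1 (-2.94), LOC107310823 (-8.41) and LOC107317629 (-2.98). Smaller called differences were those of ALB (-1.74), GC (-1.0), FETUB (-1.04), LPL (-1.13), HGFAC (-1.05), VTN (-0.95), ACAD11 (-0.59), KMO (-0.93), SLC38A3 (-0.72), KLB (-0.92), HJV (-1.09), COL18A1 (-0.69), SOD1 (-0.77) and LOC107310113 (-0.73).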

How the results depend on the processing

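Female calls numbered 2080 to 2646 with any 1 female library left out (1036 to 1342 higher, 1044 to 1350 lower), the fewest without solvent female 10. On library totals they were 5778, with 5214 higher and 564 lower. Every other scaling, filter and test gave counts within 1.5 times of 2737 (1375 higher, 1362 lower), apart from the fit with replicate numbers below. Called differences between the female and male effects numbered 143 (35 higher, 108 lower). They numbered 21 to 191 with any 1 library left out (4 to 50 higher, 17 to 141 lower), 2330 on library totals with 2235 higher, and 454 with DESeq2's Wald test, with 151 higher and 303 lower; limma voom called 22 higher. The cause of these shifts was not tested.

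The replicate numbers of the titles were not treated as pairs in the main fit. There are 10 pairs of libraries that share a number, and their deviations from the group means correlated at -0.0245 to 0.115. Libraries with different numbers were not compared in this way, so these values cannot decide whether the numbers mark pairs. Numbers 1, 2, 7 and 8 joined a solvent male to an EE2 female, and numbers 3, 5 and 6 a solvent female to an EE2 male. Number 4 joined the male groups, and only numbers 9 and 10 joined the female groups. The block therefore left less power for the female effect and little for the difference between the sexes. A call lost with it does not by itself show that pairing matters. With the number as a replicate block, 877 female calls were made, 375 higher and 502 lower, of which 353 and 463 were also called without it. The block gave 0 differences between the effects of the sexes (0 higher, 0 lower) by edgeR, with 1080 genes at an unadjusted p under 0.05; the block was not run with other tools.

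Of 182 named genes called in females, 0 changed sign in any fit, and 176 were called with any 1 female library left out. In the fits that tested them, 169 lost their call in none except the block and library totals, and 114 in none including those. The block, in which only numbers 9 and 10 joined the female groups, lost 63 of the 182 calls, and library totals lost 8. Among those lost with the block were ZP1, GREB1, HSPA5, HSP90B1, FOS, EGR1, PPARA and SLC5A5. The stricter filter and the fit of only the female libraries left a few of the 182 untested. Genes under 1 CPM had few counts, and 6.13% of them were called higher and 2.44% lower. No fit could separate composition from treatment, since the scaling factors followed the groups.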

Other observations

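Genes next to the most strongly raised genes were called higher more often than genes at large. Of the 80 genes called higher by at least 8-fold, 77 have a place in the gene order of the assembly Coturnix japonica 2.1. Among the tested genes directly beside them and not among the 80, 39 of 137 (28.5%) were called higher and 8 (5.84%) lower, against 10.2% and 10.1% of all genes. The share called higher was 18.2% at 2 places away, 12% at 3, 13.2% at 5 and 7.28% at 10. Of the 80 genes themselves, 7 pairs lay side by side. Beside the 53 placed genes called lower by at least 4-fold, 17 of 99 (17.2%) were called lower, with 17.3% at 2 places, 7.77% at 3, 14.2% at 5 and 10.5% at 10. This view was chosen after the values were seen, neighbouring genes are not independent, and no test was made.

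Neighbours of some of the leading loci are given as examples. They were chosen after their values were seen, and not every neighbour of these loci is described. LOC107317565 and LOC107317352 lie side by side on chromosome 8 with SSX2IP, a centrosome protein gene, before them and CTBS and SPATA1 after them. SSX2IP averaged 5.25 ± 0.819 CPM in EE2 females and 1.93 ± 0.462 CPM in solvent females, with no overlap, and SPATA1 rose as described, whereas CTBS, the lysosomal chitobiase gene between LOC107317352 and SPATA1, fell to 16.8 CPM in EE2 females, against 27.1 CPM in solvent females (edgeR adjusted p = 0.0397, lost on library totals and without any 1 of solvent females 5, 6 and 10 and EE2 females 1, 2, 7 and 10). On chromosome 1, NPTXR and LOC107314278 lie on either side of DNAL4, an axonemal dynein light chain gene, which read 16.1 to 21.7 CPM in EE2 females and 5.62 to 7.56 CPM in solvent females. SUN2, a nuclear envelope gene and the next beyond LOC107314278, read 50.2 to 85.6 CPM in EE2 females and 12.5 to 20.2 CPM in solvent females. On chromosome 15, SLC35E4 beside TCN2 averaged 8.02 ± 3.0 CPM in EE2 females and 0.65 ± 0.224 CPM in solvent females. On chromosome 11, DRC7, a gene of motile cilia beside ZPD, averaged 31.1 ± 18.8 CPM in EE2 females and 3.87 ± 0.761 CPM in solvent females.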
